A study of Arabidopsis thaliana with 16 samples.

Results

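The seeds compared here differed in 2 factors at the same time. On one side stood 4 libraries of *dog1-3* seeds imbibed on 1/2 MS agar with 100 mM NaCl (*dog1-3* NaCl), and on the other 4 libraries of Col-0 seeds (WT) imbibed on 1/2 MS agar without added salt (WT mock), 8 of the 16 libraries of the series, taken by genotype and medium as the labels give them. All seeds were collected 1 day after harvest and were imbibed for 72 h at 4°C. The *dog1-3* line is a single T-DNA insertion line in Col-0, so an effect of the insertion cannot be told apart from other differences of that line. The other 8 libraries, 4 of WT with NaCl (WT NaCl) and 4 of *dog1-3* without it (*dog1-3* mock), carry only 1 of the 2 factors each and served to split the joint difference into its parts. Polyadenylated RNA was primed with barcoded oligo(dT) and counted by 3'RNA-seq, and the mock and NaCl reactions were pooled separately, so that treatment and library pool cannot be told apart. The labels do not say whether the 4 libraries of a group came from separate harvests, and p-values measure the spread between these libraries, which may be technical.

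*DOG1* (*DELAY OF GERMINATION 1*) sets the depth of dormancy in mature seeds, and its protein acts together with the abscisic acid (ABA) pathway through clade A protein phosphatases 2C. ABA keeps a seed in its dry-seed programme, in which late embryogenesis abundant (LEA) proteins, storage proteins and oil-body proteins are made, while gibberellin (GA) promotes cell-wall loosening and growth of the embryo. NaCl lowers the water potential and brings in sodium, and it delays germination.

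*DOG1* (AT5G45830), the gene that carries the insertion, was read first as a check of the labels. It had 17.8, 23.5, 17.2 and 17.2 CPM in the *dog1-3* NaCl libraries, against 80.5, 102, 75.8 and 63.1 CPM in the WT mock libraries. The *dog1-3* NaCl libraries were all below the WT mock libraries, although WT NaCl seeds had 145 ± 23.9 CPM (SD, n = 4), and the joint log2FC was -2.09 (standard error 0.16, adjusted p = 3.8e-14, edgeR).

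Total counts were between 1416354 and 2416698 in *dog1-3* NaCl, against 2479170 to 3635844 in WT mock. The libraries also differed in composition, since the 20 genes with the highest counts took 23.6% to 25.8% of the counts in *dog1-3* NaCl and 15.1% to 17.6% in WT mock. Levels are given as CPM, counts divided by a library size that edgeR's TMM method adjusts for composition, with factors of 0.859 to 0.906 in *dog1-3* NaCl and 1.09 to 1.15 in WT mock. Seed markers (albumins, cruciferins and oleosins, 8 of 8 detected) summed to 87710 to 112500 CPM in *dog1-3* NaCl and 30840 to 52220 CPM in WT mock. Root markers were at 0 in both groups. Of 5 leaf markers 1, *CA1*, was at 0 in both groups. The leaf sum was 838 to 1025 CPM in *dog1-3* NaCl and 374 to 456 CPM in WT mock, mostly from *RBCS1A*. In whole seeds, fewer cells of a type and less RNA per cell cannot be told apart.

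Of 12697 genes tested, 2354 (18.5%) were called up and 2380 (18.7%) were called down in *dog1-3* NaCl against WT mock, which required both a difference over 1.5-fold and an adjusted p below 0.05. Of these genes 172 rose and 180 fell by more than 4-fold. In 6007 genes (47.3% of those tested) the 4 libraries of one group did not overlap with those of the other, 3028 of them higher and 2979 lower in *dog1-3* NaCl. The balance of the calls depended on the scaling, since library size alone, without TMM factors, moved the median log2FC of all genes from -0.02 to -0.36 and gave 1193 genes called up (20.9% of the calls) and 4522 called down. Directions below are therefore relative to the bulk of the transcriptome.

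The largest increase was that of AT1G64795, which encodes an uncharacterized protein. It had 379, 333, 297 and 329 CPM in the *dog1-3* NaCl libraries, against 5.96, 9.22, 14.0 and 14.3 CPM in the WT mock libraries, with no overlap between the groups, and a joint log2FC of 4.88 (standard error 0.14, adjusted p = 2.6e-26, edgeR). Most of it was present without salt, since *dog1-3* mock seeds had 212 ± 25.9 CPM and WT NaCl seeds had 6.79 ± 3.00 CPM (SD, n = 4 each), and the salt effect in WT had the opposite sign (log2FC -0.73). The gene on its opposite strand, *ILA*, was not called (log2FC 0.27).

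AT5G49640, also an uncharacterized protein, came next with 174, 203, 231 and 199 CPM in the *dog1-3* NaCl libraries, against 4.10, 2.17, 12.6 and 14.0 CPM in the WT mock libraries. Every *dog1-3* NaCl library was far above every WT mock library, and the joint log2FC was 4.52 (standard error 0.21, adjusted p = 3.3e-20, edgeR). Here the salt effect in WT (log2FC 4.22) was larger than the genotype effect in mock (log2FC 1.55), by a direct test of WT NaCl against *dog1-3* mock (difference 2.67 on the log2 scale, adjusted p = 1.4e-13, edgeR). AT5G49645, on the opposite strand, was not called (log2FC 0.52) but was more abundant, with 714.5 CPM in *dog1-3* NaCl and 498.2 CPM in WT mock. Its part in the counts of AT5G49640 was not tested.

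*AUR2* (AT2G25880), a gene for an Aurora kinase, which acts in chromosome segregation, had 121, 147, 101 and 111 CPM in the *dog1-3* NaCl libraries, against 11.2, 8.67, 7.14 and 7.74 CPM in the WT mock libraries. Its groups did not overlap either, with a joint log2FC of 3.81 (standard error 0.14, adjusted p = 4.9e-23, edgeR). *AUR2* lies opposite the oleosin gene AT2G25890, which itself rose by a log2FC of 1.78 and had 2270 CPM in *dog1-3* NaCl against 659 CPM in WT mock, so that without knowledge of the strand setting of the counting, reads of the pair cannot be told apart.

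*NCED4* (AT4G19170), annotated as a nine-cis-epoxycarotenoid dioxygenase and a member of the carotenoid cleavage family, had 20.2, 20.8, 27.1 and 22.7 CPM in the *dog1-3* NaCl libraries, against 2.61, 3.25, 0.738 and 2.42 CPM in the WT mock libraries. All 4 *dog1-3* NaCl libraries exceeded all WT mock libraries (joint log2FC 3.33 (standard error 0.26, adjusted p = 6.9e-14, edgeR)), and salt in WT (log2FC 1.94) and genotype in mock (log2FC 1.29) each raised it.

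The other 8 of the 12 largest increases were between 9.04-fold and 12.5-fold. Of these, *AP4.3A* (AT2G32800, a protein kinase family member), AT1G72060 (a serine-type endopeptidase inhibitor) and AT1G14453 (uncharacterized) are protein-coding, AT1G06123, AT1G07323, AT1G05333 and AT2G08750 are long non-coding RNAs, and *U5.6* (AT1G04263) is a U5 spliceosomal RNA. *U5.6* had 53.0, 61.7, 40.4 and 42.4 CPM in the *dog1-3* NaCl libraries, against 6.71, 3.25, 5.66 and 6.29 CPM in the WT mock libraries, which separated the groups, but U5 genes are near-identical copies and their reads may be shared. Nearly all of its change came with salt, since *dog1-3* mock seeds had 4.95 ± 1.21 CPM and WT NaCl seeds 41.6 ± 9.70 CPM (SD, n = 4 each). Of the 12 genes, 8 overlap an annotated gene on the opposite strand, and in 8 no WT mock library held 15 or more counts. AT1G05333 lies opposite *BETA-TIP* (log2FC 2.18), AT2G08750 opposite AT2G35680 (log2FC 1.06) and AT1G72060 opposite AT1G72070 (log2FC 0.84), and these partners were called up. The part of these partners in their counts was not tested.

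At the other extreme no gene of the 12 overlaps one on the opposite strand. AT5G58900, a homeodomain-like transcriptional regulator, had no counts in any *dog1-3* NaCl library, against 8.20, 4.61, 7.88 and 4.60 CPM in the WT mock libraries, and was at least 3.40-fold lower in *dog1-3* NaCl when 3 counts in each library are taken as the detection limit.

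*CYP71B2* (AT1G13080), a cytochrome P450, had 2.81, 2.01, 0.553 and 2.35 CPM in the *dog1-3* NaCl libraries, against 65.9, 54.8, 52.2 and 51.0 CPM in the WT mock libraries. The groups lay far apart, with a joint log2FC of -4.80 (standard error 0.30, adjusted p = 8.6e-17, edgeR). Each factor alone lowered it to an intermediate level, 13.6 ± 6.72 CPM in WT NaCl and 9.56 ± 3.50 CPM in *dog1-3* mock (SD, n = 4 each).

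*ASPGB1* (AT3G16150), an asparaginase that releases ammonium from asparagine, had 2.81, 2.01, 0 and 1.57 CPM in the *dog1-3* NaCl libraries, against 48.1, 42.3, 43.1 and 31.9 CPM in the WT mock libraries. It was lower in every *dog1-3* NaCl library (joint log2FC -4.60 (standard error 0.28, adjusted p = 7.4e-17, edgeR)), and the 2 single effects were of similar size, -2.03 for salt in WT and -2.20 for genotype in mock on the log2 scale, with a difference of 0.16 between them (adjusted p = 0.67, edgeR).

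*XTH19* (AT4G30290), a xyloglucan endotransglucosylase that remodels the wall, was the most abundant gene of this extreme, with 14.1, 15.4, 5.54 and 12.6 CPM in the *dog1-3* NaCl libraries, against 280.5, 344, 254 and 211 CPM in the WT mock libraries. The lowest WT mock library was far above the highest *dog1-3* NaCl library, and the joint log2FC was -4.52 (standard error 0.22, adjusted p = 5.9e-20, edgeR). The genotype effect in mock (log2FC -2.54) exceeded the salt effect in WT (log2FC -1.27), with a difference of 1.27 on the log2 scale (adjusted p = 4.8e-07, edgeR).

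The remaining 8 decreases included the F-box protein gene AT2G32560 (log2FC -4.76), the GDSL lipase gene *ARAB-1* (AT1G28670, -4.58), *DFL1* (AT5G54510, -4.22), which encodes an auxin-conjugating GH3 enzyme, *SBP3* (AT3G23800, -4.21), a selenium-binding protein, *scpl44* (AT1G43780, -3.99), a serine carboxypeptidase-like protein, and AT3G51410 (-3.93), of unknown function. Counts at this end were small, since in 11 of the 12 genes no *dog1-3* NaCl library held 10 counts or more and in 8 at least 1 library held 0. AT5G43420, a RING/U-box protein gene, had 3 counts in all 4 *dog1-3* NaCl libraries together against 117 in WT mock, a 17.95-fold lower level in *dog1-3* NaCl with a 95% exact binomial interval of 5.99 to 88.3 for counting error only. The last of the 12, the protein kinase gene AT1G45160, is described with the departures.

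**Figure D1:**
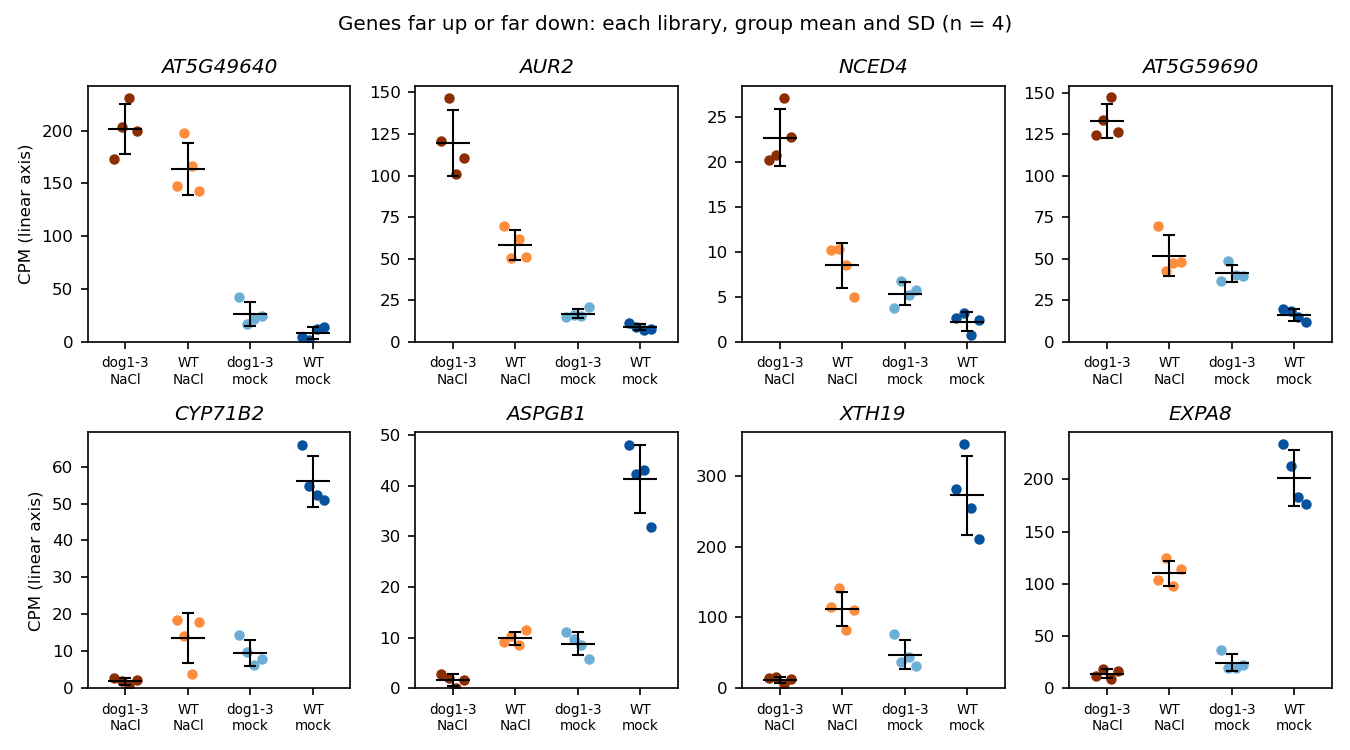
Level of 8 genes in CPM on linear axes, in *dog1-3* NaCl, WT NaCl, *dog1-3* mock and WT mock. Points are libraries, and bars show the mean and SD (n = 4). In the upper row the *dog1-3* NaCl libraries lie above all WT mock libraries, as for *NCED4* with 22.7 CPM on average against 2.25 CPM. For AT5G49640 they overlap the WT NaCl libraries (173.6 CPM in *dog1-3* NaCl replicate 1, 197.8 CPM in WT NaCl replicate 2). In the lower row the *dog1-3* NaCl libraries lie lowest, as for *XTH19* with 11.9 CPM against 272 CPM in WT mock.

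The 100 largest increases and the 100 largest decreases differed in gene class. Non-coding genes made up 15 of the 100 increases and 3 of the 100 decreases, against 1.74% of all genes tested. Genes overlapping another on the opposite strand were 38 and 22 of the 100, against 29.3% of all genes tested. Of the 26 gene lists described next, 11 of the 100 increases and 19 of the 100 decreases belonged to at least 1, against 624 of all genes tested (4.92%). The lists were chosen with earlier results of these data known, so these shares are descriptions only. LEA and dehydrin genes led the lists among the increases with 4, and cell-wall loosening genes led among the decreases with 8.

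The dry-seed programme was higher in *dog1-3* NaCl across its parts. For the counts by list here and below, 18.5% of all genes tested were called up and 18.7% down. Of 65 LEA and dehydrin genes, whose proteins protect cells during water loss, 38 passed the filter on low counts, and 37 were called up and 0 down. Their median log2FC was 1.61 (1.34 with DESeq2), against -0.02 over all genes tested. The largest increase was that of *ERD14* (AT1G76180), a dehydrin, with 8.44, 13.4, 9.41 and 8.63 CPM in the *dog1-3* NaCl libraries, against 0.745, 0.813, 2.46 and 1.45 CPM in the WT mock libraries and a log2FC of 2.73 (standard error 0.38, adjusted p = 7.4e-08, edgeR). *ERD14* separated the groups but was a gene of low level, unlike AT2G21820, annotated as a seed maturation protein, which had 1058, 1030, 1133 and 870.5 CPM in the *dog1-3* NaCl libraries, against 178, 205, 188 and 166 CPM in the WT mock libraries (log2FC 2.47 (standard error 0.09, adjusted p = 5e-23, edgeR)). *LEA14* (AT1G01470) followed with a log2FC of 2.45 (standard error 0.10, adjusted p = 2.2e-22, edgeR).

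*LEA6* (AT2G40170, also known as *EM6*), a LEA protein of the late-maturing embryo and a classical ABA target, had 7732, 10280, 9691 and 7199 CPM in the *dog1-3* NaCl libraries, against 1700, 1837, 1627 and 1414 CPM in the WT mock libraries. The groups did not overlap, and the log2FC was 2.41 (standard error 0.12, adjusted p = 1.1e-19, edgeR). It also counted in the list of ABA, cold and drought markers, of which 7 of 14 genes passed the filter and all 7 were called up. The median log2FC of that list was 2.02 (1.56 with DESeq2). In that list *RD29B* (AT5G52300), which ABA and drought induce, had 660, 649, 588 and 456 CPM in the *dog1-3* NaCl libraries, against 101, 115, 134 and 113 CPM in the WT mock libraries (log2FC 2.34 (standard error 0.10, adjusted p = 1.2e-21, edgeR)).

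Storage reserves followed the same direction. Of 10 seed storage protein genes 9 were called up, with a median log2FC of 1.31. *PAP85* (AT3G22640), a vicilin-like cupin, had 11460, 12290, 12670 and 10960 CPM in the *dog1-3* NaCl libraries, against 3645, 2954, 2956 and 2563 CPM in the WT mock libraries, with no overlap and a log2FC of 1.97 (standard error 0.10, adjusted p = 7.4e-19, edgeR). *SESA2* and *SESA4*, albumin genes of a tandem family whose copies can share reads, rose by log2FC of 2.22 (standard error 0.19) and 1.78 (standard error 0.28). Of 19 oleosins and caleosins, which coat oil bodies, 10 passed the filter and all 10 were called up, with a median log2FC of 1.54. *OLEO2* (AT5G40420) was highest among them by change, with 4177, 4868, 4912 and 4672 CPM in the *dog1-3* NaCl libraries, against 1198, 952, 1077 and 898 CPM in the WT mock libraries and a log2FC of 2.18 (standard error 0.11, adjusted p = 5.5e-19, edgeR).

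These lists overlap with the seed markers, which rose with them, and with the genes that take up the counts of a library. Leaving out the 20 genes with the highest counts, which removed storage protein genes, left 4 of them called up, with a median log2FC of 1.68.

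Chaperones moved less uniformly. Of 14 tested HSP20-like chaperones, *HSP101* and *HSFA9*, 8 were called up and 0 down (median log2FC 0.62, 5 called up by library size alone). The median was 0.29 with DESeq2 and 0.22 without the filter on low counts, where 7 were called up and 1 down. *HSP17.6A* (AT5G12030), a small heat shock protein, rose by a log2FC of 2.22 (standard error 0.14), and *HSFA9* (AT5G54070), the heat shock factor of the maturing seed, had 36.1, 36.2, 47.6 and 48.6 CPM in the *dog1-3* NaCl libraries, against 11.2, 10.8, 12.3 and 7.50 CPM in the WT mock libraries (log2FC 2.00 (standard error 0.19, adjusted p = 1.2e-11, edgeR)). *HSFA9* lies opposite *U3D* (log2FC 1.19) and *TIP3;1* opposite AT1G73200 (log2FC 1.23), so that reads of each pair may be mixed. Water channels of the protein storage vacuole rose as well, *BETA-TIP* (AT1G17810) by a log2FC of 2.18 (standard error 0.10) and *TIP3;1* (AT1G73190) by 1.74 (standard error 0.11). Of the 10 tested aquaporins 4 were called up and 1 down, against 18.5% and 18.7% of all genes tested. The plasma membrane aquaporin *PIP3* (AT4G35100) was that decrease, with 30.7 ± 3.71 CPM in *dog1-3* NaCl and 77.8 ± 4.59 CPM in WT mock (SD, n = 4 each). Defensins and peptidase inhibitors had 12 of 17 tested genes called up (7 by library size alone), among them the cystatin gene *CYSA* (AT2G40880, log2FC 2.80, standard error 0.19).

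**Figure D2:**
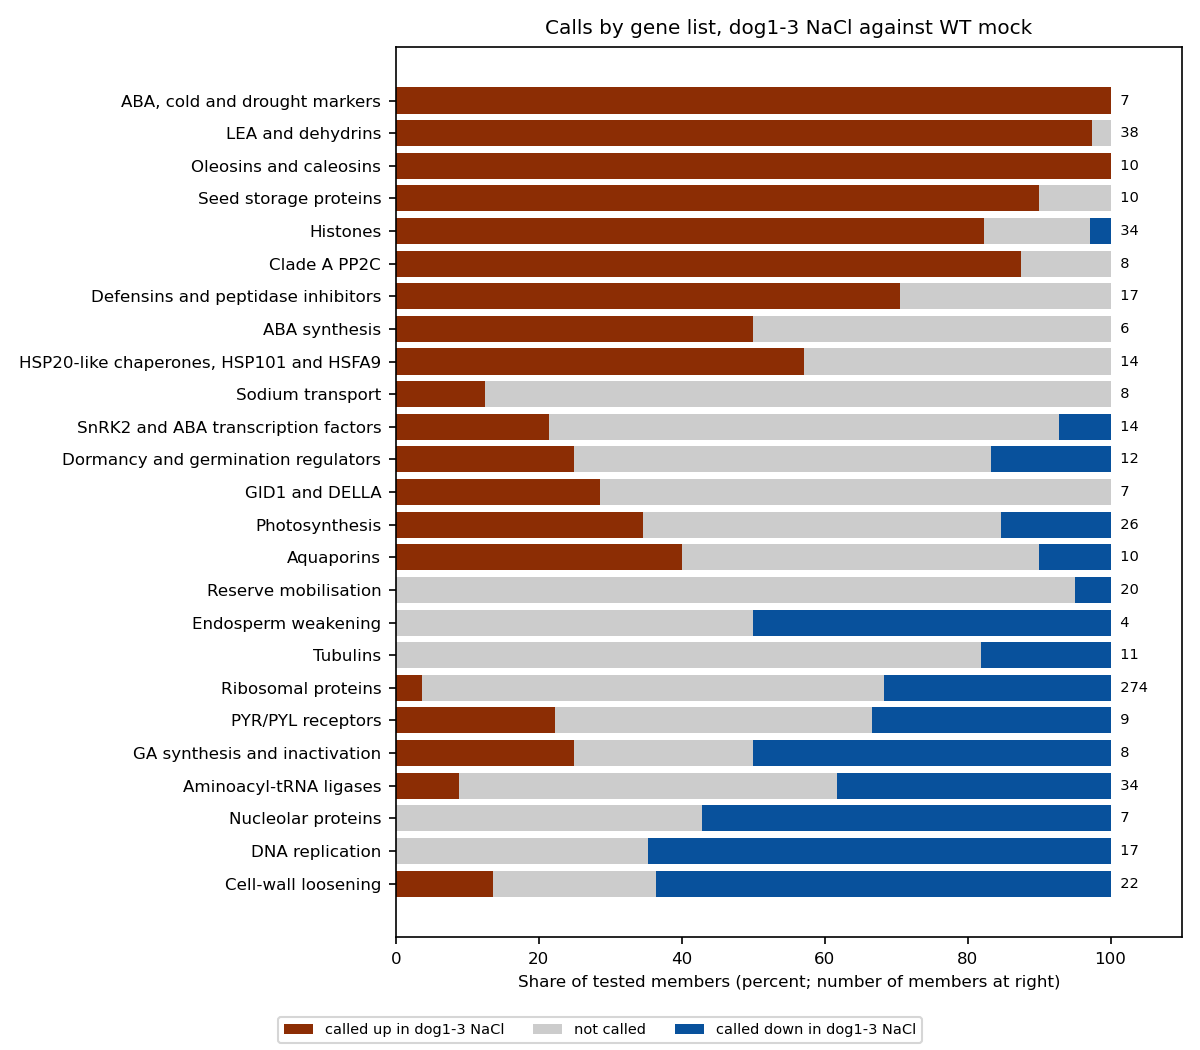
Share of the tested members of the 25 gene lists with more than 1 tested member that were called up, not called and called down in *dog1-3* NaCl against WT mock, in percent, with the number of members at the right and lists in order of their median log2FC. ABA, cold and drought markers, oleosins and LEA genes stand at the upper end, and DNA replication and cell-wall loosening genes at the lower.

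Promoter sequences were read for the genes that stood for each direction, as the 250 bases before the annotated gene start in TAIR10.1 (RefSeq annotation), to show which short motifs they hold. The motif ACGTG, the core of the ABA-responsive element, was searched on both strands (it is contained in the G-box CACGTG) and was present in 33.4% of the promoters of genes called up, 20.7% of those called down and 23.9% of all protein-coding genes tested. It was in 50.0% of the promoters of genes that rose by more than 4-fold and in 32 of 38 of those of the tested LEA and dehydrin genes. The RY motif CATGCA, bound by B3 factors of the maturing seed, was in 9 of 10 storage protein promoters and 9 of 10 oleosin and caleosin promoters, against 6.64% of all. The E2F-type motif TTTCCCGC was in 3 of 17 promoters of the tested DNA replication genes, against 0.599% of all, and the telo box AAACCCTA in 15.0% of the ribosomal protein promoters, against 3.97% of all. These are descriptions of letters in a window and not of binding. In the following 4 promoters, shown as an example of each motif and chosen after the matches were known, capitals mark ACGTG in *LEA6* (chr2:16780369-16780618, minus strand), CATGCA in *SESA4* (chr4:13613346-13613595, plus strand), TTTCCCGC in *MCM2* (chr1:16969964-16970213, plus strand) and AAACCCTA in *NOP56* (chr1:20986953-20987202, minus strand), on either strand.
LEA6: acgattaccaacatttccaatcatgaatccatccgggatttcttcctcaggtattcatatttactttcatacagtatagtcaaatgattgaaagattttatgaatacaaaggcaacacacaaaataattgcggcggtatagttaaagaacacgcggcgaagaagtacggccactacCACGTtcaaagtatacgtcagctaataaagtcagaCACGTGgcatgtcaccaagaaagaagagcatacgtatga
SESA4: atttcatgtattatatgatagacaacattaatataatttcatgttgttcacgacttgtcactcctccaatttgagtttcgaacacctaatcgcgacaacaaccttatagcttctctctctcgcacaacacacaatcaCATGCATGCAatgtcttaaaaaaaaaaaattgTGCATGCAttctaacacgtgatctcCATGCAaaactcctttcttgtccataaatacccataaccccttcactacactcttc
MCM2: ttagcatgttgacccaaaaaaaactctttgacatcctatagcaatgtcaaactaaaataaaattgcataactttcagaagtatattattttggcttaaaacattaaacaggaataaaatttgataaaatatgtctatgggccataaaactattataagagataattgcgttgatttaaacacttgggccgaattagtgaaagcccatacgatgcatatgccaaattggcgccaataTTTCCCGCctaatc
NOP56: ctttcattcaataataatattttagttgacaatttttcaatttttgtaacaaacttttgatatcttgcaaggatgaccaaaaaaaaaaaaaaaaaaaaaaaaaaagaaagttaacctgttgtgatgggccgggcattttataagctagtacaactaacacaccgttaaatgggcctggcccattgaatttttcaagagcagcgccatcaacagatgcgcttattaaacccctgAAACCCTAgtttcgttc

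*LEA6* held 3 matches of ACGTG and *SESA4* 6 partly overlapping matches of CATGCA, while *MCM2* and *NOP56* held 1 match each of their motif. *LEA6* and *SESA4* rose and *MCM2* and *NOP56* fell, as given for each of them.

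The ABA pathway itself did not move as a block. Clade A protein phosphatases 2C, which repress ABA signalling and are themselves ABA-induced, had 7 of 8 tested genes called up and 0 down (median log2FC 1.03), 4 up and 1 down by library size alone. *HAB1* (AT1G72770) rose by a log2FC of 1.74 (standard error 0.19), *ABI2* (AT5G57050) by 1.65 (standard error 0.20), and *AHG1* (AT5G51760), a phosphatase that the DOG1 protein binds, had 52.5, 50.3, 56.5 and 43.9 CPM in the *dog1-3* NaCl libraries, against 22.4, 21.4, 17.2 and 15.7 CPM in the WT mock libraries (log2FC 1.44 (standard error 0.13, adjusted p = 5.2e-12, edgeR)). The *AHG1* groups did not overlap.

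Members of the PYR/PYL family of ABA receptors moved in both directions, with 2 of 9 tested genes called up and 3 down (2 and 6 by library size alone). Over all genes tested 18.5% were called up and 18.7% down, so these small counts give no direction for the family. *PYL7* (AT4G01026) had 12.2, 17.4, 11.1 and 12.6 CPM in the *dog1-3* NaCl libraries, against 1.12, 2.44, 2.21 and 1.94 CPM in the WT mock libraries and a log2FC of 2.69 (standard error 0.26, adjusted p = 3.2e-11, edgeR), and *PYL13* (AT4G18620) rose by a log2FC of 1.20 (standard error 0.14). *PYL4* (AT2G38310) had 6.57, 4.02, 6.64 and 3.92 CPM in the *dog1-3* NaCl libraries, against 49.9, 40.7, 39.4 and 38.95 CPM in the WT mock libraries, a log2FC of -2.91 (standard error 0.21, adjusted p = 9.1e-15, edgeR). *PYL6* (AT2G40330) fell with it, by 2.77 on the log2 scale (standard error 0.29), and *PYR1* (AT4G17870) by 0.71 (standard error 0.11). Each of these 5 genes separated the groups.

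Of 14 tested SnRK2 kinases and ABA transcription factors, which transmit the signal, 3 were called up and 1 down. Over all genes tested the shares were 18.5% and 18.7%. *ABI5* (AT2G36270), a bZIP factor that arrests growth after germination, had 383, 374, 408 and 380.4 CPM in the *dog1-3* NaCl libraries, against 177, 182, 216 and 193 CPM in the WT mock libraries, and all 4 *dog1-3* NaCl libraries were above all WT mock libraries (log2FC 1.01 (standard error 0.08, adjusted p = 2.8e-14, edgeR)). The bZIP genes *EEL* (AT2G41070, log2FC 1.73) and *ABF4* (AT3G19290, log2FC 1.14) rose too, while *ABI4* (AT2G40220), an AP2 factor, had 30.4 ± 2.51 CPM in *dog1-3* NaCl and 52.9 ± 2.52 CPM in WT mock (SD, n = 4 each), a decrease of 0.81 on the log2 scale. Among 6 tested ABA synthesis genes 3 were called up, *ABA1* (AT5G67030, zeaxanthin epoxidase, log2FC 1.36), *NCED9* (AT1G78390, a rate-limiting dioxygenase of the seed, log2FC 1.21) and *AAO3* (AT2G27150, log2FC 0.84, adjusted p = 0.038, edgeR), of which *AAO3* was no longer called without WT mock replicate 1 (log2FC 0.63), WT mock replicate 3 (0.88), *dog1-3* NaCl replicate 1 (0.71) or *dog1-3* NaCl replicate 4 (0.76). The single tested member of the 4 *CYP707A* genes, which break ABA down, was not called (log2FC -0.41).

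GA genes also moved in both directions. Of 8 tested genes for GA synthesis and inactivation, 2 were called up and 4 down, against 18.5% and 18.7% of all genes tested. By library size alone 1 was called up. *GA3OX1* (AT1G15550), which makes bioactive GA, had 2.81, 3.35, 4.98 and 1.57 CPM in the *dog1-3* NaCl libraries, against 33.5, 21.7, 29.3 and 29.5 CPM in the WT mock libraries, far apart in the 2 groups, with a log2FC of -3.09 (standard error 0.24, adjusted p = 5.4e-14, edgeR). *GA20OX1* (AT4G25420) and *GA20OX2* (AT5G51810), which act before it, fell by 1.48 and 0.99 on the log2 scale (standard errors 0.14 and 0.12). The 2 increases lay on opposite sides of the pathway. *KAO2* (AT2G32440), which acts early in GA synthesis, had 61.6 CPM on average in *dog1-3* NaCl and 37.4 CPM in WT mock, without overlap (log2FC 0.72 (standard error 0.11, adjusted p = 1.1e-06, edgeR)), and was not called by library size alone (log2FC 0.37). *GA2OX2* (AT1G30040), which inactivates GA, had 50.7, 47.6, 49.8 and 40.8 CPM in the *dog1-3* NaCl libraries, against 15.7, 18.7, 13.5 and 17.2 CPM in the WT mock libraries and was higher, with a log2FC of 1.55 (standard error 0.15, adjusted p = 3.6e-11, edgeR). Among the GA receptors *GID1A* (AT3G05120) rose by a log2FC of 1.12 and *GID1C* (AT5G27320) by 0.68, with 0 of the 7 tested *GID1* and *DELLA* genes called down, although by library size alone 1 was called up and 3 down.

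Cell-wall loosening genes, which allow cells to expand, were mainly lower. Of 67 genes 22 passed the filter, 14 were called down and 3 up, with a median log2FC of -1.72 (-1.25 with DESeq2). *EXPA8* (AT2G40610), an expansin, had 11.7, 18.8, 8.86 and 16.5 CPM in the *dog1-3* NaCl libraries, against 234, 212, 183 and 176 CPM in the WT mock libraries (log2FC -3.89 (standard error 0.16, adjusted p = 6.4e-22, edgeR)), and the genotype effect in mock (log2FC -3.04) was larger than the salt effect in WT (log2FC -0.86). *EXPA2* (AT5G05290), which acts in the endosperm of germinating seeds, had 0.938, 2.01, 0 and 0.784 CPM in the *dog1-3* NaCl libraries, against 7.82, 19.2, 16.2 and 4.11 CPM in the WT mock libraries (log2FC -3.67 (standard error 0.62, adjusted p = 3.6e-06, edgeR)). All *EXPA2* values in *dog1-3* NaCl rest on few counts. In the other direction, *XTH25* (AT5G57550) had 575, 741, 773 and 540.4 CPM in the *dog1-3* NaCl libraries, against 219.8, 238, 175 and 133 CPM in the WT mock libraries and a log2FC of 1.79 (standard error 0.13, adjusted p = 3.7e-15, edgeR), and *XTH11* (AT3G48580) and *EXL2* (AT5G64260) rose by log2FC of 1.17 and 0.92. These 3 genes were called for genotype in mock and not for salt in WT, with log2FC of 1.80, 1.23 and 1.04 in mock, against 0.39, -0.10 and -0.24 for salt in WT. Of 4 tested genes of endosperm weakening, *bZIP44* (AT1G75390), a regulator of mannanase genes, fell by 1.62 on the log2 scale, and *MAN7* (AT5G66460), a mannanase, by 0.71, with overlapping groups. The other 2 were not called, *EPR1* (AT2G27380), an extensin-like gene of the endosperm, with a log2FC of 0.56, and *MAN5* with 0.15. *EPR1* made up most of the endosperm marker sum, which was 22870 to 29730 CPM in *dog1-3* NaCl and 15370 to 21500 CPM in WT mock. *MAN7* was no longer called without WT mock replicate 2 (log2FC -0.57) or *dog1-3* NaCl replicate 1 (-0.56).

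DNA replication genes were lower in *dog1-3* NaCl, with 11 of 17 tested genes called down and 0 up (median log2FC -1.54). *PCNA1* (AT1G07370), the sliding clamp of the replication fork, had 1.41, 1.34, 0 and 0 CPM in the *dog1-3* NaCl libraries, against 8.20, 10.3, 9.11 and 8.23 CPM in the WT mock libraries (log2FC -3.50 (standard error 0.48, adjusted p = 6.5e-08, edgeR)). *MCM7* (AT4G02060) and *MCM2* (AT1G44900), subunits of the replicative helicase, followed, and *MCM2* had 1.41, 1.34, 1.11 and 1.57 CPM in the *dog1-3* NaCl libraries, against 10.4, 10.6, 11.1 and 8.95 CPM in the WT mock libraries (log2FC -2.88 (standard error 0.38, adjusted p = 3e-08, edgeR)). These genes are near the detection limit in *dog1-3* NaCl, and with all libraries thinned to the smallest total 5 genes of the list were called down and the median log2FC was -0.59. With only the 8 libraries compared, 9 genes were called down and the median was -1.12.

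Most genes of translation were not called at 1.5-fold, and those that were lay mainly on the lower side. All *dog1-3* NaCl libraries were below all WT mock libraries in 174 of 274 ribosomal protein genes and above in 17. The same held for 17 and 5 of 34 aminoacyl-tRNA ligases and for 6 and 0 of 7 nucleolar proteins. Of all genes tested, 23.5% lay below and 23.8% above in this way. Of 274 tested ribosomal protein genes 87 were called down and 10 up, against 18.7% and 18.5% of all genes tested. Their median log2FC was -0.39, and by library size alone 172 were called down and 4 up. *RPSAb* (AT3G04770), a protein of the small subunit, had 11.7, 12.1, 14.9 and 14.9 CPM in the *dog1-3* NaCl libraries, against 57.0, 55.8, 64.2 and 61.2 CPM in the WT mock libraries, with no overlap (log2FC -2.16 (standard error 0.15, adjusted p = 2.4e-15, edgeR)). The largest increase in this list was AT3G14595 (log2FC 1.96), annotated only by an L18ae family domain. Many ribosomal proteins are encoded by near-identical copies, among which reads can be split. Of 34 aminoacyl-tRNA ligases, which charge tRNAs, 13 were called down and 3 up (24 and 1 by library size alone), against 18.7% and 18.5% of all genes tested. *ATKRS-1* (AT3G11710), the lysyl-tRNA synthetase, fell by 1.5 on the log2 scale (standard error 0.11). Among 7 nucleolar proteins 4 were called down and 0 up, and *FIB2* (AT4G25630), a fibrillarin that modifies ribosomal RNA, had 515, 504, 531 and 598 CPM in the *dog1-3* NaCl libraries, against 1127, 1139, 1152 and 1231 CPM in the WT mock libraries (log2FC -1.12 (standard error 0.08, adjusted p = 2.1e-14, edgeR)). *NOP56* (AT1G56110), of the same particles, fell by 0.80 on the log2 scale (standard error 0.08). Of 11 tubulin genes 2 were called down, a share near the 18.7% of all genes tested, *TUB5* (AT1G20010, log2FC -3.54) and *TUA6* (AT4G14960, log2FC -1.78), and 6 were called down by library size alone.

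Histone genes went against the replication genes. Of 34 tested histone genes 28 were called up and 1 down, with a median log2FC of 1.08 (19 up by library size alone). AT5G59690, a member of the histone superfamily, had 125, 133, 147 and 126 CPM in the *dog1-3* NaCl libraries, against 19.7, 18.7, 14.8 and 11.8 CPM in the WT mock libraries (log2FC 3.06 (standard error 0.13, adjusted p = 2.8e-21, edgeR)). *HIS1-3* (AT2G18050), a linker histone known to be induced by drought, had 91.9, 102, 104 and 80.8 CPM in the *dog1-3* NaCl libraries, against 14.9, 19.5, 17.0 and 20.8 CPM in the WT mock libraries, again without overlap (log2FC 2.37 (standard error 0.11, adjusted p = 4.4e-20, edgeR)). AT1G08170, another member of the superfamily, rose by a log2FC of 2.28. The 1 decrease, *HTA8* (AT2G38810, log2FC -0.73, adjusted p = 0.023, edgeR), had overlapping groups and was lost without WT mock replicate 4 (-0.67) or *dog1-3* NaCl replicates 2 (-0.62) and 3 (-0.62). Histone genes are multigene families whose copies can share reads.

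Other lists moved little or in both directions, beside the 18.5% of all genes tested that were called up and the 18.7% called down. Photosynthesis genes had 9 of 26 called up and 4 down, and *RBCS1A* (AT1G67090), a small subunit of Rubisco, had 888 ± 82.3 CPM in *dog1-3* NaCl and 393 ± 36.1 CPM in WT mock (SD, n = 4 each), while leaf markers summed to 838 to 1025 CPM in *dog1-3* NaCl and 374 to 456 CPM in WT mock, mostly from this gene. Of 20 reserve mobilisation genes, which turn oil into sugar, 19 were not called and *PMDH2* (AT5G09660) was called down (log2FC -1.08). Among 8 sodium transport genes only *NHX3* (AT5G55470), a sodium/proton exchanger, was called up, with 76.9, 82.5, 79.1 and 53.3 CPM in the *dog1-3* NaCl libraries, against 22.7, 25.5, 24.4 and 22.0 CPM in the WT mock libraries (log2FC 1.64 (standard error 0.13, adjusted p = 6.4e-14, edgeR)), and without WT mock replicate 1 the count was 2. Of 12 tested dormancy and germination regulators, 3 were called up and 2 down, against 18.5% and 18.7% of all genes tested. *MFT* (AT1G18100), a phosphatidylethanolamine-binding protein of the ABA and GA pathways, had 236, 198, 201 and 212 CPM in the *dog1-3* NaCl libraries, against 108, 125, 107 and 109 CPM in the WT mock libraries (log2FC 0.92 (standard error 0.09, adjusted p = 4.7e-11, edgeR)), *RDO5* (AT4G11040) and *PHYB* (AT2G18790) rose by log2FC of 1.03 and 0.68, and *SPT* (AT4G36930), a bHLH factor, fell beside *DOG1* by 1.04 on the log2 scale. Without WT mock replicate 4, 5 of these genes were called up, and by library size alone 1. Medians of the *GID1* and *DELLA*, photosynthesis, reserve mobilisation, aquaporin and dormancy lists were between 0.03 and 0.15 and turned negative by library size alone, so no direction is given for these lists.

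How far the joint difference equals the sum of its parts was asked on the log2 scale, where the sum is the salt effect in WT plus the genotype effect in mock and the departure is the joint difference minus that sum. The 3 comparisons share the WT mock libraries, so the values are set side by side and no correlation is given. Salt in WT called 2099 genes (16.5%), 1201 up (9.46%) and 898 down (7.07%), and genotype in mock called 2334 genes (18.4%), 1262 up (9.94%) and 1072 down (8.44%). Over the 2354 genes called up jointly, the median log2FC was 0.52 for salt in WT, 0.56 for genotype in mock, 1.04 for the sum of the 2 in each gene and 0.95 for the joint difference. Over the 2380 genes called down the corresponding medians were -0.44, -0.47, -0.92 and -0.95.

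The departure was small in most genes. Its median was -0.06 in the genes called up (quartiles -0.24 and 0.11) and -0.06 in those called down (quartiles -0.27 and 0.12), against -0.02 over all genes tested. It stayed under 1.5-fold in 92.9% of the genes called up, 89.9% of those called down and 94.0% of those not called. Precision set the limit on this statement, since the 95% interval of the departure lay within 1.5-fold either way for 1710 of the 4734 called genes (36.1%). Among called genes with a mean level above the median of all genes it did so for 69.4%, and among those below for 3.99%. For most called genes of low level the interval thus did not exclude a departure of 1.5-fold at this depth.

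The test of the departure called 1 of 12697 genes (0.00788%) at an adjusted p under 0.05 with edgeR, and DESeq2 also called 1, a different gene. At an unadjusted p under 0.05, edgeR gave 826 genes (6.51%) and DESeq2 539. Among the jointly called genes 365 (7.71%) had an unadjusted p under 0.05 with edgeR, 281 with a negative and 84 with a positive departure. Among the others 461 (5.79%) did, 250 with a negative and 211 with a positive departure. Among the 172 genes that rose by more than 4-fold the median departure was -0.26, with 131 negative, so that they reached less than the sum, and among the 180 that fell by more than 4-fold it was also -0.26, with 130 negative, so that they fell below it. These genes were chosen on the joint difference, which enters the departure, so the counts are descriptions.

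**Figure D3:**
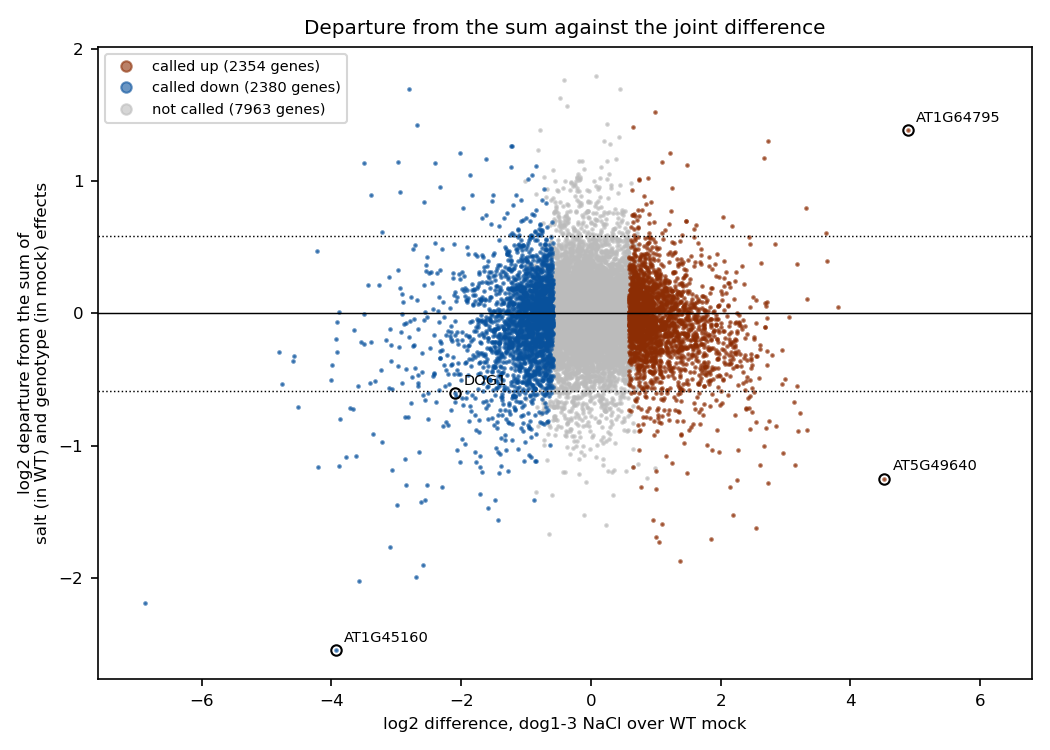
Departure from the sum (log2, vertical) against the joint log2FC of *dog1-3* NaCl over WT mock (horizontal) for 12697 genes, coloured by call, with dotted lines at 1.5-fold. Most points lie between the dotted lines, and AT1G45160 (-2.55) and AT1G64795 (1.39) are circled with AT5G49640 and *DOG1*.

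The gene called by edgeR was the protein kinase gene AT1G45160, one of the 12 largest decreases. It had 2.35, 0, 1.11 and 0.784 CPM in the *dog1-3* NaCl libraries, against 17.1, 19.0, 18.5 and 20.8 CPM in the WT mock libraries, 27.4 ± 1.36 CPM in WT NaCl and 5.04 ± 1.25 CPM in *dog1-3* mock (SD, n = 4 each). Salt in WT had a log2FC of 0.53, and in *dog1-3* NaCl the gene was near 0. The level expected from the sum was 7.33 CPM, and the departure was -2.55 on the log2 scale, 95% interval -3.50 to -1.60, adjusted p = 0.041, edgeR. The call was lost in 9 of the 16 fits that left out 1 library (*dog1-3* NaCl replicates 2, 3 and 4, WT NaCl replicates 1 and 3, *dog1-3* mock replicates 1, 2 and 3, and WT mock replicate 3), where 0 genes were called. DESeq2 called AT1G64795 instead (departure 1.39, adjusted p = 0.013, DESeq2), whose adjusted p in edgeR was 0.089. *dog1-3* NaCl seeds had 335 ± 33.7 CPM (SD, n = 4), against 132 CPM expected from the sum.

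The other departures with the smallest p among the called genes fell short of the sum in size. AT2G18540, a cupin of the vicilin type, had 744, 501, 469.9 and 539 CPM in the *dog1-3* NaCl libraries, against 270.1, 283, 292 and 253 CPM in the WT mock libraries, where the sum would give 931 CPM (departure -0.72 on the log2 scale, 95% interval -1.03 to -0.40, adjusted p = 0.14, edgeR). *AO1* (AT5G20960), an aldehyde oxidase, had 338 ± 39.2 CPM in *dog1-3* NaCl and 95.5 ± 10.4 CPM in WT mock (SD, n = 4 each), against 487 CPM expected in *dog1-3* NaCl (departure -0.53 on the log2 scale, 95% interval -0.80 to -0.27, adjusted p = 0.32, edgeR). The non-coding gene AT4G05785 had 10.7 ± 4.38 CPM in *dog1-3* NaCl and 4.92 ± 2.77 CPM in WT mock (SD, n = 4 each), where 38.6 CPM were expected (departure -1.73 on the log2 scale, 95% interval -2.56 to -0.90, adjusted p = 0.32, edgeR). None of these 3 passed the adjusted threshold.

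At the extremes the departures were large but mostly imprecise. Their estimates were over 1.5-fold in 7 of the 12 largest increases and 4 of the 12 largest decreases. The 95% interval held 0 in 10 genes of each 12, but it lay within 1.5-fold either way for 1 gene alone, *AUR2*, and was as wide as -5.20 to 0.83 for AT5G58900, so that for the others nearness to the sum was not shown. *AUR2* had 120 CPM in *dog1-3* NaCl where 114 CPM were expected. AT1G05333 had 20.5 CPM where 42.2 CPM were expected, AT1G07323 had 11.8 where 21.6 were expected, AT1G72060 had 9.13 where 18.1 were expected, and *SBP3* had 1.15 where 2.79 were expected, each with an interval that held 0. AT5G49640 had 202 CPM where 522 CPM were expected (departure -1.25 on the log2 scale, 95% interval -1.91 to -0.59, adjusted p = 0.38, edgeR), and *XTH19* 11.9 where 19.5 were expected (departure -0.71 on the log2 scale, 95% interval -1.37 to -0.05, adjusted p = 0.74, edgeR). *DOG1*, with 18.9 CPM where 28.1 CPM were expected, departed by -0.61 on the log2 scale, 95% interval -1.11 to -0.10, adjusted p = 0.67, edgeR. These 3 departures did not pass the adjusted threshold.

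Of the genes called up jointly, those called up in both single comparisons were 374 (15.9%), for salt alone 550 (23.4%), for genotype alone 697 (29.6%) and in neither 724 (30.8%). Of the genes called down, 257 (10.8%) were called in both, 472 (19.8%) for salt alone, 573 (24.1%) for genotype alone and 1063 (44.7%) in neither. The single effects were called in opposite directions in 58 genes, 34 of which were not called jointly. Largest among those called in neither were *EMB2813* (AT1G67320), a DNA primase subunit (log2FC -3.09, against -0.79 for salt in WT and -0.53 for genotype in mock), AT1G30160 (log2FC -2.30), of unknown function, and the pentatricopeptide repeat gene AT1G64580 (log2FC -2.02), each with few counts in *dog1-3* NaCl.

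Which effect was larger was tested directly, as WT NaCl against *dog1-3* mock, a contrast that called 19.7% of all genes, 10.3% higher in WT NaCl and 9.44% lower. Of the genes called up jointly, salt was larger in 326 (13.9%), genotype in 462 (19.6%), and in 1566 (66.5%) no difference was called. Of those called down, salt was larger in 197 (8.28%), genotype in 306 (12.9%), and 1877 (78.9%) had no call. Among the 12 largest increases salt was larger in 8 and genotype in 1, and among the 12 largest decreases genotype was larger in 5 and salt in 1.

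By list, the medians of the parts differed. Over all genes tested, salt in WT called 9.46% up and 7.07% down, and genotype in mock 9.94% up and 8.44% down. The direct test called 10.3% higher in WT NaCl and 9.44% lower. Counts near these shares give no direction for a list. For LEA and dehydrin genes the median log2FC was 0.62 for salt in WT and 0.98 for genotype in mock, with a median departure of -0.10, and 14 of 38 genes had a larger genotype effect and 5 a larger salt effect by the direct test. Storage protein genes had medians of 0.31 and 0.73, with 9 of 10 called for genotype in mock and 2 for salt in WT. Clade A phosphatases had medians of 0.31 and 0.82, with 1 gene called up for salt, and 6 called up and 1 down for genotype. Histones leaned the other way, with medians of 0.67 for salt and 0.32 for genotype and with 10 genes of larger salt effect and 1 of larger genotype effect. DNA replication genes had medians of -1.0 for salt and -0.39 for genotype, with 11 and 6 genes called down. For cell-wall loosening genes the medians were -0.77 and -0.71, with 11 genes called down in each single comparison and 4 called up for genotype. Median departures of all 26 lists were between -0.28, for GA synthesis and inactivation, and 0.13, for cell-wall loosening. An unadjusted p under 0.05 for the departure (edgeR) was found in 6.51% of all genes tested. It was found in 10 of 274 ribosomal protein genes, 5 of 38 LEA and dehydrin genes and 3 of 8 clade A phosphatases. Among 17 DNA replication genes and 10 storage protein genes it was found in 0. Most lists are small, and none was tested.

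**Figure D4:**
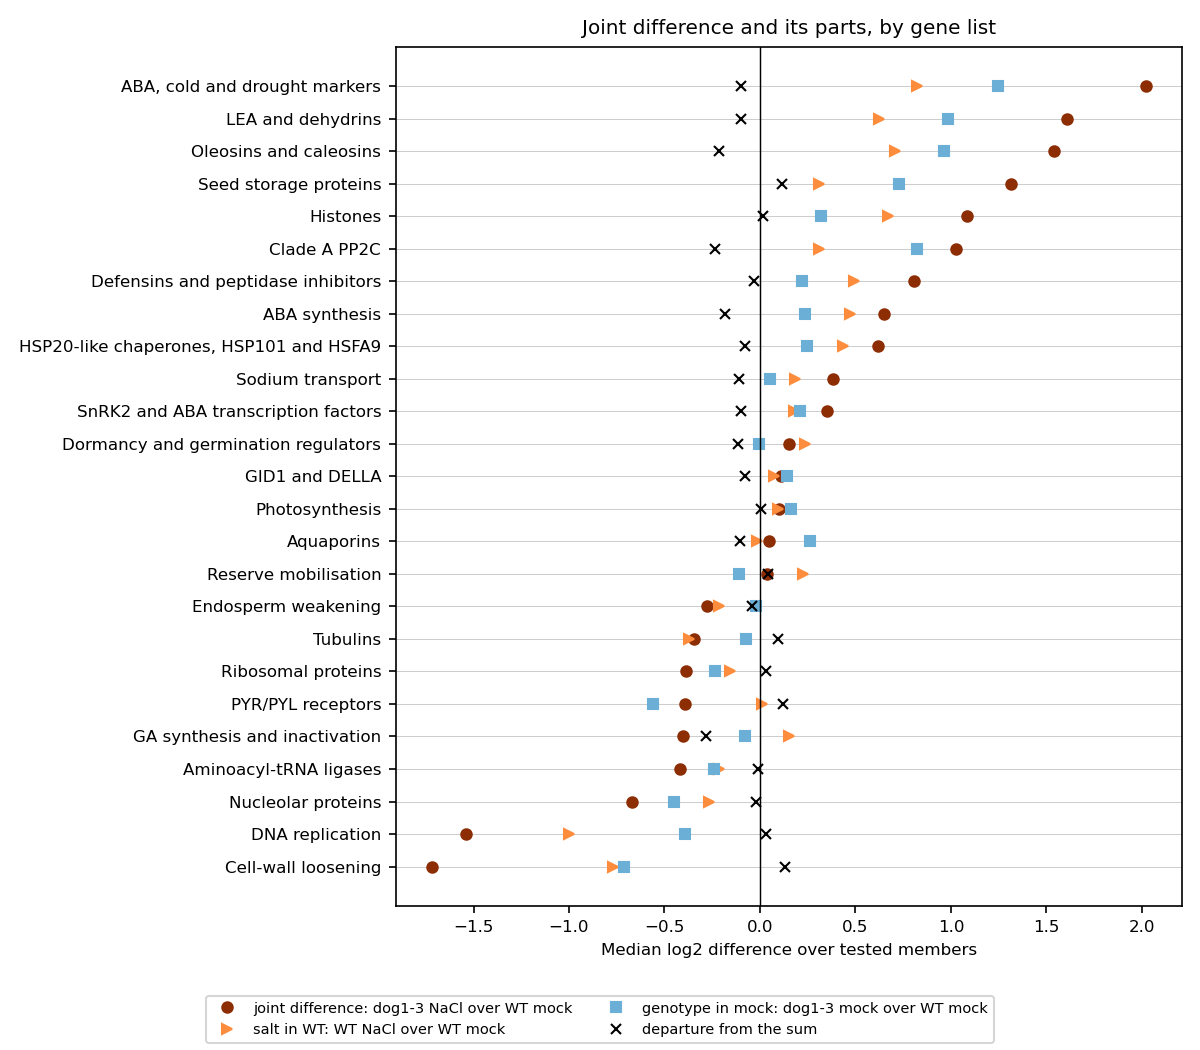
Median log2 difference over the tested members of the same 25 gene lists, for the joint difference (circles), salt in WT (triangles), genotype in mock (squares) and the departure from the sum (crosses). The crosses stay between -0.28 and 0.13, while the joint medians range from 2.02 for ABA, cold and drought markers to -1.72 for cell-wall loosening.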

How the data were processed

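Counts per gene were deposited for 16 libraries of imbibed seeds, 4 in each of 4 groups, made from 3'RNA-seq. The submitters' processing notes name STAR 2.7.8a, DESeq2 and the build TAIR10. The counting tool, its strand setting and the handling of molecular identifiers are not given in the sources used here. The deposited counts, whole and not normalized, were filtered with edgeR's filterByExpr (minimum count 10), which left 12697 of 37336 loci, of which 37051 matched the RefSeq annotation of TAIR10.1 by locus.

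One model with 4 groups was fitted to all 16 libraries with edgeR 4.0.16 in R 4.3.3 (TMM factors, quasi-likelihood test, Benjamini-Hochberg adjustment over all genes tested). Contrasts were *dog1-3* NaCl against WT mock, the 2 single effects, WT NaCl against *dog1-3* mock, and the departure from the sum. Genes were called at an adjusted p under 0.05 and over 1.5-fold, and departures at an adjusted p under 0.05. No set test was run.

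Named genes were *DOG1*, the 12 largest increases and decreases among called genes whose groups did not overlap and whose higher group had a mean count of at least 10, at most 3 called members of each list in each direction, the 5 departures of smallest p among called genes, and 3 genes called in neither single comparison. Named genes and lists were chosen with earlier results of these data known. AT3G14595 and similar members entered a list by annotation text. Alternatives were DESeq2 1.42.0, other scaling factors, no filter, thresholds, thinning to the smallest library, and leaving out single libraries or the 20 genes with the highest counts. Scripts were tested on simulated data. Intervals of the departure were built from the standard errors of the edgeR fit and so include the spread between libraries. The binomial interval and the detection limit cover counting error only.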

Additional observations from a re-analysis of the deposited data

Results flagged for a closer look

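In 9 of 232 groups of 4 libraries examined (116 named genes, *dog1-3* NaCl and WT mock), 1 library stood apart from the other 3, where chance gives about 1 in 20. In *dog1-3* NaCl, replicate 2 had 23.5 CPM of *DOG1* against 17.2 to 17.8 CPM in the others, and 0.0 CPM of *PPD1* against 1.41 to 1.66 CPM. Replicate 1 had 10.8 CPM of AT2G08750 against 16.8 to 17.7 CPM. In WT mock, replicate 1 had 49.9 CPM of *PYL4* against 39 to 40.7 CPM, and replicate 2 had 125 CPM of *MFT* against 107 to 109 CPM. Replicate 3 had 2.71 CPM of AT1G07323 against 0.542 to 0.745 CPM, and 15.8 CPM of *ARAB-1* against 19.8 to 20.6 CPM. Replicate 4 had 13.3 CPM of *GID1C* against 9.22 to 9.69 CPM, and 1170 CPM of *TIP3;1* against 1570 to 1640 CPM.

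AT1G45160 is listed because the salt effect differed between *dog1-3* and WT by a test of the difference itself, with a departure of -2.55 on the log2 scale (adjusted p = 0.041, edgeR).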

How the results depend on the processing

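Counts of genes called up and down were 2354 and 2380, and leaving out 1 of the 8 libraries compared gave 2312 to 2441 up and 2242 to 2408 down, while leaving out 1 of the other 8 gave 2368 to 2443 up and 2376 to 2451 down. An adjusted p under 0.05 alone gave 3575 up, a test against 1.5-fold itself (glmTreat) gave 1369 up and 1179 down, and library size alone gave 1193 up and 4522 down. DESeq2 gave 2493 up and 2349 down. The departure, called in 1 gene, was called in 21 without the filter on low counts, in 0 with the replicate number as a block, in 0 after thinning, in 826 at an unadjusted p under 0.05, and in 0 to 3 when 1 library was left out. The cause was not tested. Correlations of same-numbered libraries were between -0.064 and 0.094, so the numbers do not pair the samples, and the fit with the replicate block called 2354 genes up and 2365 down. Of 116 named genes under 16 settings 0 reversed, and 12 lost the call in at least 1 setting, *AAO3* in 7. Of the counts by list, 782 stayed within 1.5 times and 50 did not. The median standard error of the departure was 0.22 in genes called up and 0.29 in genes called down.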
